A study of Mus musculus with 7 samples.

Results

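Grm2, Grm3, Grm4, Grm5, Grm6, Grm7 and Grm8 encode 7 metabotropic glutamate receptors, and they were taken as named genes from the 25239 genes of the authors' deposited table. The table sets cortex of mouse embryos that received the Ccnd2 Thr280Ala change against cortex that received a silent change. All embryos were C57BL/6J with a genotype given as wild type. In 3 embryos Breasi-CRISPR, an in utero electroporation of genome editing reagents, was used at E13.5 to put the Thr280Ala variant into Ccnd2, which encodes cyclin D2. In 4 embryos the same method delivered a silent CRISPR control. The electroporated part of the cortex was taken at E15.5 and its polyadenylated RNA was sequenced. Each of 3 litters gave 1 edited brain, while litter 1 gave 2 control brains and the other litters 1 each. Electroporation reaches only part of the cells, so each sample mixes cells with and without the edit, and the edited share was not measured here.

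Metabotropic glutamate receptors are G protein-coupled receptors of class C that bind glutamate in a large extracellular domain and work as dimers. Group I receptors, here Grm5, act through Gq, phospholipase C and calcium release. Group II receptors, Grm2 and Grm3, and group III receptors, Grm4, Grm6, Grm7 and Grm8, act through Gi/o, which lowers cAMP, and through G protein beta-gamma subunits on ion channels. In the developing cortex mGluR5 is found in progenitors and young neurons, while several group II and III receptors are best known as presynaptic brakes on glutamate release.

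None of the receptor genes passed the authors' test. In the authors' deposited table, 0 of the 6 members with an adjusted p were below 0.05 in the DESeq2 Wald test, where 0.246% of the 14638 genes tested were called in either direction and 0.184% were called lower in the edited brains. Grm6 was too low for an adjusted p. At an unadjusted p below 0.05 the authors' deposited table held Grm8 and Grm3, so 2 of the 7 members, both lower in the edited brains, where 5.86% of the genes tested met that level in either direction and 3.66% lower. In the authors' deposited table, 5 of the 6 members with an adjusted p had a log2 fold change below 0, with Grm4 the exception, and their median was -0.44. Over all 14638 genes the authors' deposited table had a median of -0.01, with 52.0% below 0. In tissue samples such as these, fewer cells of a type and less RNA per cell cannot be told apart.

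**Figure D1:**
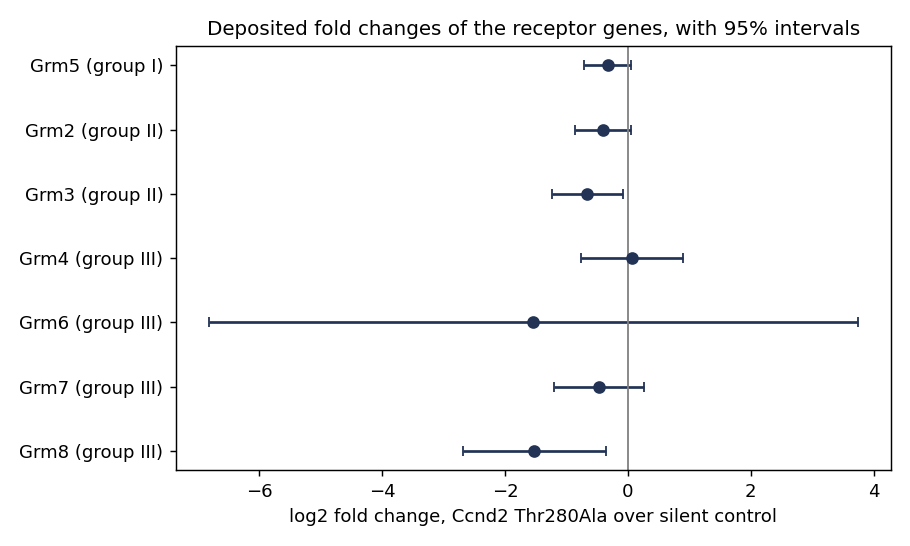
The x axis gives the log2 fold change of each receptor gene in Ccnd2 Thr280Ala over silent control brains from the authors' deposited table, and bars are 95% intervals from its standard errors. The intervals of Grm3 and Grm8 lie below 0 before any adjustment for the number of genes, and the interval of Grm6 runs from -6.82 to 3.75.

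The members differed widely in level. Per kb of exon, the mean normalized count over all 7 libraries in the authors' deposited table was 86.1 for Grm5, 49.4 for Grm2, 42.8 for Grm3, 20.7 for Grm4, 11.01 for Grm7, 2.83 for Grm8 and 0.271 for Grm6. The level of Grm5 was thus 318 times that of Grm6, while Grm2 and Grm3, the 2 group II genes, were 1.15 times apart in the authors' deposited table. For 5 members the reads of each brain could be worked back from the deposited statistics, as described with the processing, and they give the spread of these levels. The sets of reads of Grm3 and Grm4 are less certain than those of Grm6, Grm7 and Grm8, for the reason given with the values of Grm3. Grm3 ranged over the 7 libraries from 18.0 to 87.9 normalized counts per kb, Grm4 from 12.8 to 36.1 and Grm7 from 7.21 to 19.9. Grm8 ranged from 0.936 to 8.61 per kb, and Grm6 from 0 to 0.989 per kb. The ranges of each pair of neighbours among these 5 overlapped. Within single brains the order held more often, with Grm3 above Grm4 per kb in 6 of 7 libraries and Grm4 above Grm7 in 6 of 7. Grm7 was above Grm8, and Grm8 above Grm6, in 7 of 7 libraries. No spread over brains was obtained for Grm5 and Grm2, so whether their places differ from their neighbours beyond the spread was not tested.

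**Figure D2:**
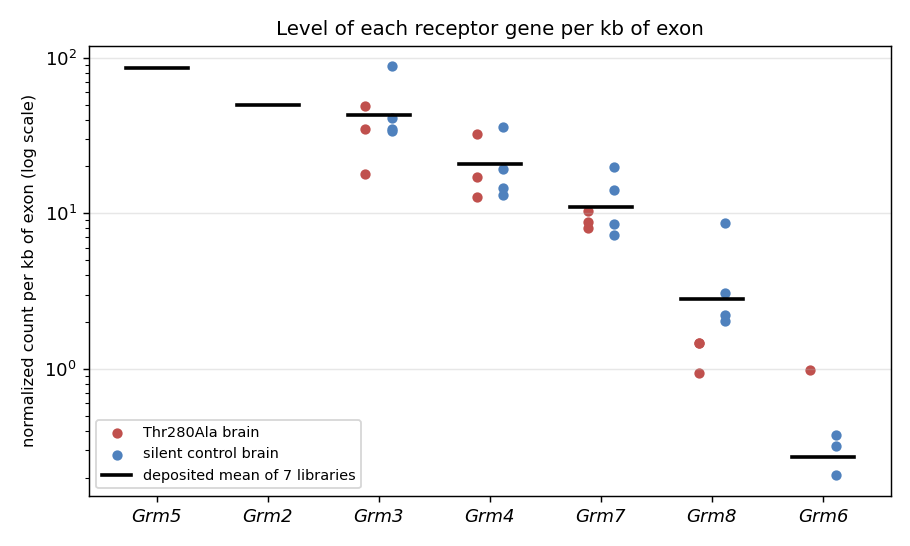
The y axis, on a log scale, gives the normalized count per kb of exon of each receptor gene. Points are single brains of the 5 genes whose reads were rebuilt, with brains at 0 reads (3 of Grm6) not drawn, and lines are the deposited means over 7 libraries, which are the only values for Grm5 and Grm2.

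Grm5, the group I member, couples glutamate to phospholipase C and intracellular calcium. It lies on the plus strand of chromosome 7, 87584168 to 88134907 of GRCm38 (mm10), and had a mean of 882.5 normalized counts, the highest of the 7 genes. The authors' deposited table gave it a log2 fold change of -0.33 with an SE of 0.20 (95% interval -0.72 to 0.05), at an adjusted p of 0.934. There were 4722 genes in the authors' deposited table with a mean within 2-fold of that of Grm5, and its SE was 1.68 times their median, with 4.11% of them higher. Its fold change was thus less precise than that of most genes of like abundance, and its value in each brain was not recovered.

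Of the group II genes, Grm2 encodes a receptor that damps glutamate release from presynaptic terminals. The gene spans 106643095 to 106656082 of chromosome 9, minus strand, with a mean of 241.7 normalized counts. The authors' deposited table gave it a log2 fold change of -0.40 with an SE of 0.23 (95% interval -0.85 to 0.05), at an adjusted p of 0.925. An annotated antisense gene, Gm28111, covers 470 exonic bases of Grm2, or 9.60% of its exonic length, and no source used here gives the strand setting of the counting. Whether reads of the antisense gene were counted with Grm2 can therefore not be told. Gm28111 has no entry in the authors' deposited table. The brain-by-brain values of Grm2 were not recovered either.

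Grm3 encodes the other group II receptor, which neurons and astrocytes express. The gene spans 9485541 to 9725170 of chromosome 5, minus strand. The 300 bases around its RefSeq start are shown because Grm3 and Grm8 are the members with an unadjusted p below 0.05, and the capitals mark the GC box GGGCGG, searched on both strands. The window is chr5:9725303-9725602 of GRCm38.p6, minus strand, from RefSeq.
Grm3 promoter: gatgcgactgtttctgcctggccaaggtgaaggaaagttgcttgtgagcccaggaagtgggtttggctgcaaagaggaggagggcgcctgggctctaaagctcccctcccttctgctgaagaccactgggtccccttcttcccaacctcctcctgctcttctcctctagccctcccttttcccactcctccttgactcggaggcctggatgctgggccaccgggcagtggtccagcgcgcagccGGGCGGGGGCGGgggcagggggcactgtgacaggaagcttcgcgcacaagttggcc
This window held the GC box 2 times, with 63.7% G and C and 11 CpG dinucleotides, where the median promoter had 52.7% and 7. The GC box was present in 35.7% of all 32851 RefSeq promoter windows of the same length.

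The brain values of Grm3 rest on a choice between sets of whole reads that was made after the candidates were seen. The set used has 65, 138 and 124 reads in the edited brains of litter 1, pair A and pair B, and 123 and 97 in the controls of litter 1, 92 in that of pair A and 261 in that of pair B. Pair A and pair B are litters 2 and 3 in an order that the statistics do not give. A second set, with 30, 248 and 108 reads in the edited brains and 168, 5, 287 and 91 in the controls, also rebuilt the deposited mean, fold change and standard error. It was set aside because its litter 1 controls would hold 168 and 5 reads and its Pearson chi-square was 36.7 on 3 degrees of freedom, against 2.64 for the set used. Another set, with 126, 205 and 11 reads in the edited brains and 264, 139, 188 and 17 in the controls, missed the deposited fold change by 5.39e-10, just over the limit of 5.3e-10, where the set used missed it by 2.34e-11. The Pearson chi-square of that set was 1.33, lower than that of the set used, so the fold change alone told them apart. In that set both brains of pair B would be the lowest and a litter 1 control the highest. At this abundance a set that is not the true one can therefore match, so the brain values of Grm3, and of Grm4 at a like mean, are not certain. The mean, fold change and SE in the authors' deposited table do not depend on this choice.

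In the set used, Grm3 had 54.8 normalized counts in the edited brain of litter 1, 105.7 in that of pair A and 149.9 in that of pair B, against 106.5 and 125.6 in the 2 controls of litter 1, 103.5 in that of pair A and 268.0 in that of pair B. The control of pair B was far above the other 6 brains, the edited brain of litter 1 was the lowest, and the groups overlapped. Within litter 1 the edited brain stood at 0.472 times the mean of its controls, in pair B at 0.559 times its control and in pair A at 1.02 times. The edited brains averaged 103 ± 47.6 normalized counts (SD, n = 3) and the controls 151 ± 78.7 (SD, n = 4). The authors' deposited table gave Grm3 a log2 fold change of -0.66 with an SE of 0.29 (95% interval -1.24 to -0.09), at an adjusted p of 0.691. An exact two-sided permutation test on the log2 values, which exchanges brains across litters and so ignores litter, and can give no p below 0.0571 with 3 against 4 brains, gave p = 0.457 for Grm3 (0.686 after Benjamini-Hochberg adjustment over the 4 genes so tested). Refits of this set with the dispersion held fixed gave log2 fold changes of -0.41 (SE 0.37) without litter 1, -0.97 (SE 0.35) without pair A and -0.58 (SE 0.35) without pair B.

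Among the group III genes, Grm8 encodes a presynaptic receptor with high affinity for glutamate. The gene spans 27275119 to 28135178 of chromosome 6, minus strand, and Mir592, a microRNA gene listed at 0 counts, lies within its exonic sequence over 96 bases. RefSeq lists 3 starts for Grm8, and the window around the outermost is shown as the other member with an unadjusted p below 0.05, with the GC box in capitals. The window is chr6:28135097-28135396 of GRCm38.p6, minus strand, from RefSeq.
Grm8 promoter: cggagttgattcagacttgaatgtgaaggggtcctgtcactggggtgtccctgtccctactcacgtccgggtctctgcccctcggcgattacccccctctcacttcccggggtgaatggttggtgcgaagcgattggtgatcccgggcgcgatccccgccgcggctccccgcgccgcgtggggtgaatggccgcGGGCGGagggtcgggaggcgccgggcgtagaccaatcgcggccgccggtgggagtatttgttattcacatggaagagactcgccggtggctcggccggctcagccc
This window had 67.0% G and C, 33 CpG dinucleotides and 1 GC box, while the windows at the other 2 starts of Grm8 had 10 and 2 CpG dinucleotides and 0 GC boxes.

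Grm8 was at 9.27 normalized counts in the edited brain of litter 1, 14.5 in that of pair A and 14.5 in that of pair B, against 30.3 and 22.01 in the controls of litter 1, 20.2 in that of pair A and 85.2 in that of pair B. All 3 edited brains were below all 4 controls, so that the groups did not overlap, and the control of pair B was far above the other controls. Among the 5 rebuilt members only Grm8 showed such a separation. The share of all genes with such a separation was not obtained, since reads of all genes were not rebuilt. The values of Grm8 are few reads, 11, 19 and 12 in the edited brains and 35, 17, 18 and 83 in the controls. The edited brain of each litter was below its controls, at 0.354 times their mean in litter 1, 0.719 times in pair A and 0.170 times in pair B. The edited brains averaged 12.8 ± 3.04 normalized counts (SD, n = 3) and the controls 39.4 ± 30.8 (SD, n = 4), and without pair B the means were 11.9 and 24.2.

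The authors' deposited table gave Grm8 a log2 fold change of -1.52 with an SE of 0.59 (95% interval -2.68 to -0.36), at an unadjusted DESeq2 p of 0.0101 and an adjusted p of 0.516, the lowest p of the 7 genes. The same exact two-sided permutation test, which ignores litter, gave p = 0.0571 for Grm8, the smallest that 3 against 4 brains allow, or 0.229 after Benjamini-Hochberg adjustment over 4 genes. With the dispersion held fixed, a refit of the rebuilt reads without pair B gave a log2 fold change of -1.04 (SE 0.71), whose 95% interval spans 0. The same refit gave -1.53 without litter 1 and -1.97 without pair A.

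Grm7 encodes a presynaptic receptor of low affinity for glutamate. It lies on the plus strand of chromosome 6, 110645581 to 111567230. Grm7 had 47.2 normalized counts in the edited brain of litter 1, 61.3 in that of pair A and 52.0 in that of pair B, against 42.4 and 50.5 in the controls of litter 1, 83.2 in that of pair A and 117.1 in that of pair B. The edited brains lay close together, inside the wider range of the controls, and the control of pair B was again the highest. Relative to its controls the edited brain stood at 1.02 times in litter 1, 0.736 times in pair A and 0.444 times in pair B. The means were 53.5 ± 7.15 normalized counts in edited brains (SD, n = 3) and 73.3 ± 34.1 in controls (SD, n = 4).

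The authors' deposited table gave Grm7 a log2 fold change of -0.47 with an SE of 0.37 (95% interval -1.20 to 0.26), at an adjusted p of 0.999. The exact two-sided permutation test gave p = 0.514 for Grm7 (0.686 adjusted over the 4 genes). Refitted without pair B the log2 fold change of Grm7 was -0.18 (SE 0.45). The antisense gene Gm20387 covers 130 exonic bases of Grm7, or 2.21% of its exonic length, with the same limit from the unknown strand setting as for Grm2.

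Grm4 encodes a group III receptor found at presynaptic terminals, on the minus strand of chromosome 17, 27422387 to 27521403. In the single set of reads found, it had 102.0 normalized counts in the edited brain of litter 1, 76.6 in that of pair A and 193.4 in that of pair B, against 215.6 and 115.2 in the controls of litter 1, 86.6 in that of pair A and 78.0 in that of pair B. One edited brain and one control, of different litters, stood well above the other 5 brains, and the groups overlapped fully. The means were equal within their spread, at 124 ± 61.5 normalized counts in edited brains (SD, n = 3) and 124 ± 63.2 in controls (SD, n = 4).

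The authors' deposited table gave Grm4 a log2 fold change of 0.07 with an SE of 0.42 (95% interval -0.76 to 0.89), at an adjusted p of 0.999. Its SE was 1.58 times the median of the 2237 genes of like abundance in the authors' deposited table. In the set of reads found, which is not certain, the litters went different ways. The edited brain stood at 2.48 times its control in pair B and 0.884 times in pair A. In litter 1 it stood at 0.616 times the mean of the controls. The permutation test and the refits of Grm4 rest on the same set. The exact two-sided permutation test gave p = 0.971 for Grm4 (0.971 adjusted over the 4 genes). Refitted without litter 1, Grm4 had a log2 fold change of 0.57 (SE 0.55), and without pair B it had -0.48 (SE 0.50).

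Grm6 encodes the receptor through which ON bipolar cells of the retina sense glutamate, and it lies on the plus strand of chromosome 11, 50850685 to 50866208. It had 12 reads over all 7 libraries, with 0, 7 and 0 in the edited brains of litter 1, pair A and pair B, against 2 and 0 in the controls of litter 1, 1 in that of pair A and 2 in that of pair B. All reads from edited brains came from a single brain. In normalized counts that brain had 5.36 and the highest control 2.05. The authors' deposited table gave Grm6 a log2 fold change of -1.54 with an SE of 2.70 (95% interval -6.82 to 3.75), at p = 0.568 in the DESeq2 Wald test and with no adjusted p. The means pointed the other way, at 1.79 ± 3.09 normalized counts in edited brains (SD, n = 3) and 1.23 ± 0.904 in controls (SD, n = 4), and a refit without the litter term gave 0.55 (SE 2.55), so the sign of Grm6 depends on the litter term and no direction can be read from it. The antisense gene Gm12660 covers 599 exonic bases of Grm6, or 11.05% of its exonic length, again with the limit from the unknown strand setting.

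**Figure D3:**
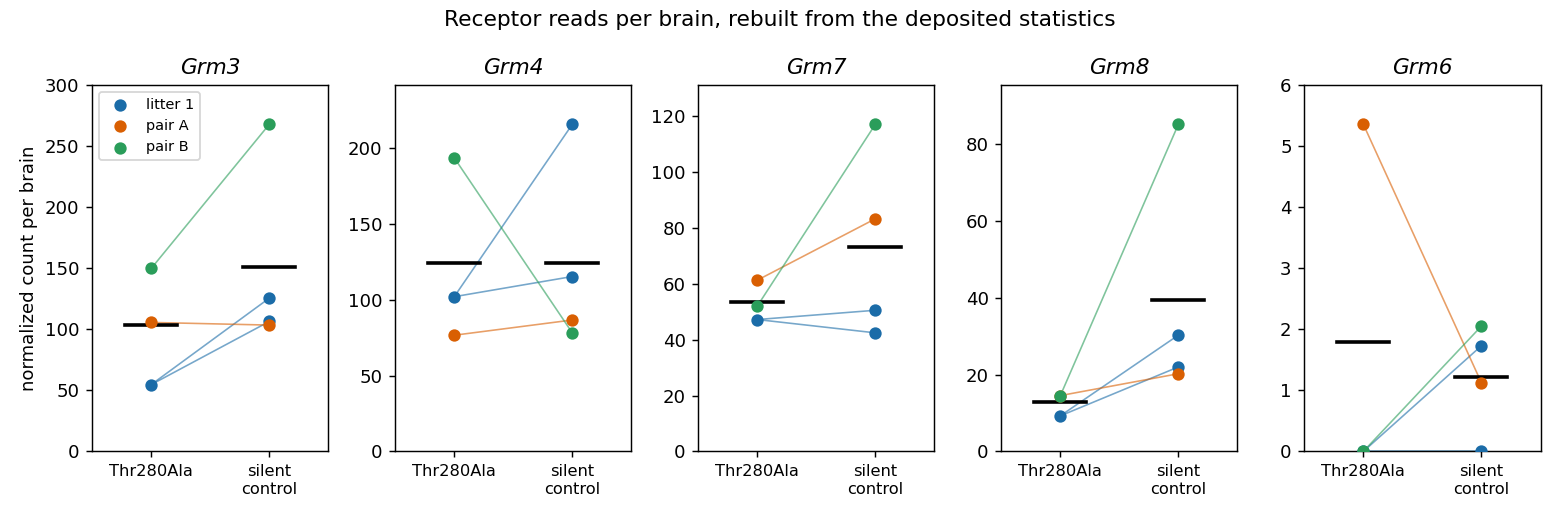
The y axis of each panel gives the normalized count per brain of 1 receptor gene, rebuilt from the deposited statistics, for Thr280Ala brains on the left and silent control brains on the right. Lines join brains of a litter and black bars are group means. For Grm8 the 3 edited brains lie below the 4 controls, and the share of all genes with such a separation was not obtained. The control of pair B is the highest brain for Grm3, Grm7 and Grm8. The sets of reads of Grm3 and Grm4 are not certain. The edited brains of litter 1 and pair B both stand at 0 for Grm6.

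**Figure D4:**
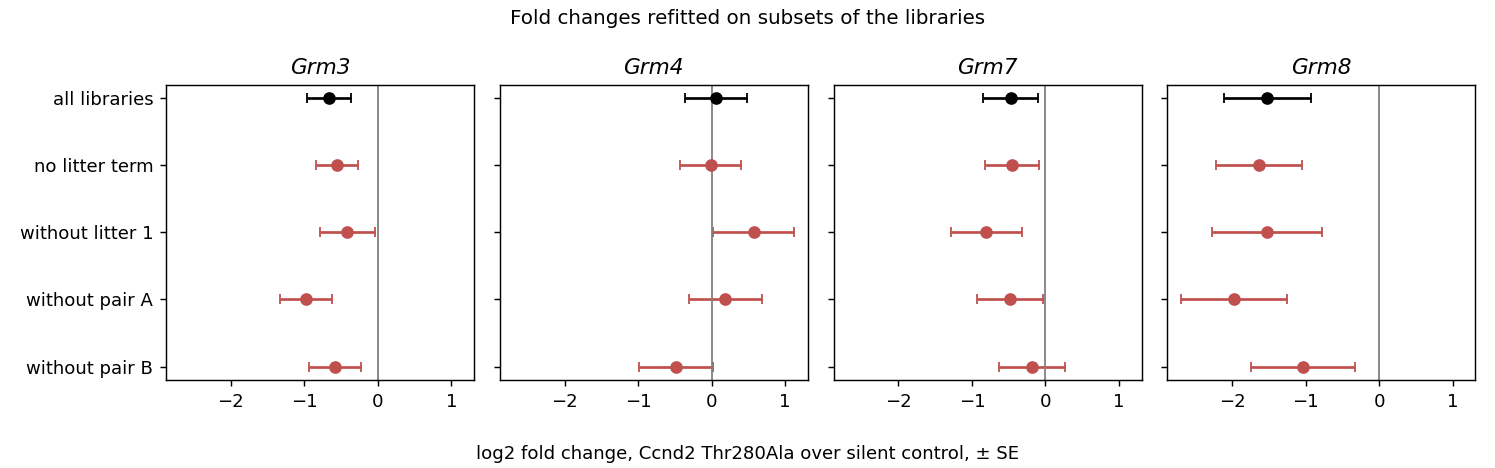
The x axis gives the log2 fold change of Thr280Ala over silent control brains, ± SE, for the 4 receptor genes with the most rebuilt reads, fitted with all libraries, without the litter term, or without 1 litter. Grm3, Grm7 and Grm8 stay below 0 in each fit drawn, and Grm4 lies on both sides of 0. The fits of Grm3 and Grm4 rest on sets of reads that are not certain.

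The control of pair B thus carried the highest value of 3 of the 5 rebuilt members, Grm7, Grm8 and, in the set used, Grm3. The same search was run on 19 other genes of low abundance from the pathway and marker lists, and 15 gave a single set. Gpr179, Grin2a, Gprc5a and Wnt8b did not. Of these 15 rebuilt genes, 7 were also highest in that brain and 3 in the control of pair A. Of the rest, 2 were highest in the edited brain of pair A, 2 in that of pair B and 1 in that of litter 1. The refits without pair B given above leave out its edited brain as well. In a fit with a litter term, an edited brain without its control adds nothing to the fold change. At the fixed dispersion, these refits thus give the same fold changes as leaving out this control alone. Why this brain was high was not tested.

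No effector gene of group I passed the test. Of 20 genes for Gq, phospholipase C, protein kinase C and calcium release, the authors' deposited table had 15 below and 5 above 0, with a median log2 fold change of -0.10 and 0 called in either direction. None of these 20 was below an unadjusted p of 0.05 either. In the authors' deposited table the smallest p was that of Ptk2b, a calcium-activated tyrosine kinase, at -0.85 (SE 0.47, adjusted p = 0.907).

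Of 19 genes for Gi/o alpha subunits, adenylyl cyclases and cAMP effectors, through which groups II and III act, 12 were below and 7 above 0 in the authors' deposited table, with a median of -0.08. The authors' deposited table called 1 gene, Adcy2, an adenylyl cyclase, which fell by 0.69 on the log2 scale (SE 0.17, adjusted p = 0.032). Prkar1b, a regulatory subunit of protein kinase A, did not pass, and the authors' deposited table put it at -0.38 (SE 0.11, adjusted p = 0.136). Of these 19 genes, 6 had an unadjusted p below 0.05, and all 6 were lower in the edited brains.

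Among the G protein beta and gamma subunit genes, 11 of 13 with an adjusted p were below 0 in the authors' deposited table, with a median of -0.22. Of these 13, 4 were lower and 0 higher at an unadjusted DESeq2 p below 0.05. The authors' deposited table called 1, Gng4, a gamma subunit, which fell by 1.19 on the log2 scale (SE 0.21, adjusted p = 5.4e-05), and Gnb4, a beta subunit, stood at -0.37 (SE 0.10, adjusted p = 0.0653). Of 27 genes for receptor scaffolds, partners and desensitisation, 19 were below and 8 above 0, with a median of -0.05 in the authors' deposited table. At an unadjusted DESeq2 p below 0.05, 3 of these 27 were lower and 0 higher. The authors' deposited table called 1 of them, Rgs2, which speeds the turning off of Gq signals and fell by 0.49 on the log2 scale (SE 0.12, adjusted p = 0.0141).

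Of the partner genes of mGluR6 in retinal ON bipolar cells, 3 of 6 had an adjusted p in the authors' deposited table, 0 were called in the DESeq2 test, and 1 was below an unadjusted p of 0.05. That gene, Rgs7, which is also expressed in brain neurons, stood in the authors' deposited table at -0.66 (SE 0.22, adjusted p = 0.259). Glutamate transport and metabolism genes were split, with 7 above and 8 below 0 among 15 in the authors' deposited table, with 0 called, and 1 higher and 1 lower at an unadjusted p below 0.05. The authors' deposited table put Slc1a2, the glial glutamate transporter GLT-1, at -0.73 (SE 0.22, adjusted p = 0.173).

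Of 18 ionotropic glutamate receptor genes, which form the ligand-gated channels, 13 were below and 5 above 0 in the authors' deposited table, with a median of -0.14. At an unadjusted DESeq2 p below 0.05, 4 of these 18 were lower and 0 higher. The authors' deposited table called 1, the NMDA receptor subunit gene Grin3a, which fell by 1.41 on the log2 scale (SE 0.19, adjusted p = 2.2e-09). Among 10 other class C receptor genes, 7 were below and 3 above 0 in the authors' deposited table, 0 were called, and 1 was lower at an unadjusted p below 0.05. The lower gene was Gprc5a, which the authors' deposited table put at -2.76 (SE 1.18, adjusted p = 0.647) with a mean of only 7.23 normalized counts. Gabbr2, a GABA-B receptor subunit gene, was listed in the authors' deposited table with -0.24 (SE 0.19, adjusted p = 0.999) and was not below that level.

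Marker genes of cell types the tissue could hold lay on both sides of 0. All 11 radial glia, 8 intermediate progenitor and 12 excitatory neuron markers were abundant enough for an adjusted p in the authors' deposited table, so the defining genes of embryonic cortex were present. The authors' deposited table had 9 of 11 radial glia and 8 of 8 intermediate progenitor markers above 0, with medians of 0.20 each, while 9 of 12 excitatory neuron markers were below 0, with a median of -0.06. Interneuron markers had 8 of 11 above 0 and a median of 0.20 in the authors' deposited table, and Npy, a neuropeptide, was the 1 marker gene called, with a fall of 0.76 on the log2 scale (SE 0.19, adjusted p = 0.0287). Of 9 Cajal-Retzius markers, 8 were below 0 in the authors' deposited table, with a median of -0.13. The same held for 4 of 5 markers of oligodendrocyte precursors, with a median of -0.29. At an unadjusted DESeq2 p below 0.05, 4 radial glia and 4 intermediate progenitor markers were higher and 0 lower. At that level 3 excitatory neuron, 2 oligodendrocyte precursor and 1 interneuron marker were lower and 0 higher. No Cajal-Retzius marker met it. Over all 14638 genes tested, 322 were higher and 536 lower at that level.

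Microglia markers had 10 of 10 below 0 with a median of -0.61 in the authors' deposited table, endothelial and pericyte markers 10 of 11 with a median of -0.32, and meninges markers 7 of 9 with a median of -0.79. Choroid plexus and hem markers had 7 of 8 above 0, with a median of 2.78 in the authors' deposited table. Of 7 erythroid markers, 3 had an adjusted p, with a median of -0.02. At an unadjusted DESeq2 p below 0.05, 5 of 10 microglia, 2 of 11 endothelial and pericyte and 1 of 9 meninges markers were lower. Higher at that level were 4 of 8 choroid plexus and hem markers, and no erythroid marker met it. The reads of 3 markers of the choroid plexus and hem list, all of low abundance, were rebuilt, and these 3 did not follow a single pattern over brains. The other markers of that list were not rebuilt. Among them are the 2 with a mean of at least 100, whose median was 3.97 in the authors' deposited table. Wnt3a, at a mean of 3.28, had no adjusted p and is not among the 8 counted above. Lmx1a was at 17.7, 33.7 and 49.6 normalized counts in the edited brains of litter 1, pair A and pair B, and at 3.46 and 15.54 in the controls of litter 1, 7.87 in that of pair A and 8.21 in that of pair B. Wnt2b was at 17.7, 42.9 and 13.3 in the same edited brains and at 13.9, 16.8, 20.2 and 69.8 in the same controls, highest in the control of pair B. Wnt3a was at 23.0 in the edited brain of pair A and had 0 reads in the other 6 brains. Summed marker levels per brain were not obtained, and the part of these differences in cell makeup in the receptor values was not tested.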

How the data were processed

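RNA of 7 embryonic mouse cortices was compared, 3 with the Ccnd2 Thr280Ala edit and 4 with the silent control, grouped by the treatment and litter in the labels. The authors used cutadapt, featureCounts and DESeq2 with mm10, per the submitters' processing notes, and the sources used here give no versions, aligner, annotation or strand setting. All values come from 1 table of the authors. Its mean normalized count is a signal the authors deposited, counts divided by size factors and averaged over the libraries. The log2 fold change and its standard error are the authors' deposited values, as are the Wald statistic, a score that the authors deposited, and the p-value and adjusted p-value deposited by the authors. The adjusted p is given from a mean of 7.08 normalized counts. Each brain is a separate embryo, so p-values cover the spread between embryos.

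The members and gene lists were chosen with earlier results of these data known. Named genes are all members, and of each pathway list the called genes and up to 3 with the smallest p, of each marker list the called genes. The rebuilt hem markers Lmx1a, Wnt2b and Wnt3a were added after their values were seen, and the text gives part of this set. 1 further receptor gene of the family is not reported here, and receptor proteins were not analysed here. Exonic lengths and gene positions are from GENCODE vM21 (GRCm38). RefSeq promoter windows (250 bases before to 50 after the start) matched 5 of the 7 members. The E-box CAGATG, the homeodomain core TAATTA and the full nuclear factor I site were searched too, on both strands, and no window of the members held them, where 17.2%, 5.29% and 0.0365% of all promoters did.

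Direction and reads per brain were recovered from the deposited statistics. The 694 genes with a single read fall into 7 classes, 3 above 0 and 4 below 0, so positive values are higher in the edited brains. They give the value of 1 read in each library, with estimated depths of 29800000, 32800000 and 20800000 reads for the edited brains and 29000000, 19400000, 22300000 and 24500000 for the controls. Fitted with terms for litter and treatment, a negative binomial regression rebuilt these classes to 2.1e-09, and one without litter was off by up to 0.19, so the authors' fit held a litter term. For members up to a mean of 130.6, all whole-read sets with the deposited mean were listed, and a set was kept where the model gave the deposited standard error and, within 5.3e-10, the fold change, and where its Pearson chi-square (3 degrees of freedom) had p above 0.001. The limit and the chi-square rule were set after candidate sets for Grm3 had been seen. The plan had been to give reads only where 1 set rebuilt the statistics; 2 did for Grm3 and 1 for each of the other 4. Tested on simulated data, the search found 1 set and the true one for 10 of 10 genes at a mean of 1.5, 12 of 12 at 28, 3 of 3 at 65 and 1 of 1 at 90, with none simulated at the level of Grm3 and Grm4. On the real data, 669 of 684 genes with means of 1 to 2 were rebuilt within rounding. A single set was found for 1616 of 1834 genes with means of 2 to 10. These genes were searched with wider limits on the mean and fold change and without the chi-square rule. That count is therefore no test of the rule used for the members. Of the 19 list genes searched, with means of 3 to 45, 15 gave a single set. Grm2 and Grm5 were too abundant to search. Refits used rebuilt reads with the dispersion of the full fit. Scripts ran in Python 3.11.15 with numpy 2.4.6, scipy 1.17.1 and numba 0.67.0.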

Additional observations from a re-analysis of the deposited data

Results flagged for a closer look

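Among the 5 rebuilt genes, the control group of 4 brains held a brain far from the others for Grm3 and Grm8. For Grm3 the control of pair B, at 268.0 normalized counts, was separated from the next control by 0.865 of the range of the controls. For Grm8 the control of pair B, at 85.2 normalized counts, was separated by 0.845 of the range. Both are above Dixon's 95% critical value for 4 samples, where 5 control groups were looked at and chance flags about 1 in 20 groups. That rate assumes normally distributed values. The rule was applied to normalized counts that were not on a log scale, so the rate for these counts is not known. Both flags fall on the same brain, and that of Grm3 rests on the choice between sets of reads described with its values.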

How the results depend on the processing

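The count of called members was 0 under each way of adjusting the deposited p-values that was tried. The smallest adjusted p of a member was 0.664 (Grm8) over all 18976 genes with a p, 0.503 (Grm8) over genes with a mean of at least 10, 0.639 (Grm3) over genes with a mean of at least 100, and 1 under Holm adjustment. Centring the fold changes on the median gene moved them by less than 0.01.

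The refits of the 5 rebuilt genes, chosen after the data were seen, had no calls to lose. With no replicate block (no litter term), the log2 fold change was -0.56 for Grm3, -0.01 for Grm4, -0.45 for Grm7, -1.64 for Grm8 and 0.55 for Grm6. Leaving out a litter or a litter 1 control gave -0.97 to -0.41 for Grm3, -0.48 to 0.57 for Grm4, -0.80 to -0.18 for Grm7, -1.97 to -1.04 for Grm8 and -2.84 to -0.52 for Grm6. More than 1 SE of movement was seen for Grm3 without pair A (-0.97) and for Grm4 without litter 1 (0.57) and without pair B (-0.48), and the cause was not tested. Calls could not be remade without a replicate or the litter term, since these need reads of all genes. Before any adjustment for the number of genes, the printed intervals of Grm3 and Grm8 lay below 0 and those of the other members spanned 0. With 3 against 4 brains, a member that was not called may still have changed by a size within its interval.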
